A study of Mus musculus with 2 samples.

Results

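Aquaporins are membrane channels for water, and some also pass glycerol or other small solutes. The 8 aquaporin genes of the nephron described here, Aqp1, Aqp2, Aqp3, Aqp4, Aqp6, Aqp7, Aqp8 and Aqp11, were chosen as the genes of these names on the array. They were chosen with earlier results of these data known. Their members are all probe sets whose platform annotation gave exactly 1 gene symbol and that symbol was on this list. This gave 19 probe sets for the 8 genes, of 34945 probe sets with 1 symbol for 18193 genes in all. Glomeruli, the filtering tufts of the kidney, had been isolated by sieving, and their RNA was measured on 2 Affymetrix arrays, 1 per genotype. One array held RNA of male C57BL/6J mice with floxed GC-A (GC-A fl/fl), floxed p38 (p38 fl/fl) and Nephrin-Cre (Cre/+), called the double knockout here. The other held RNA of male C57BL/6J mice with the same floxed alleles and Nephrin-Cre (+/+), read as without Cre and called the floxed control. Both groups, at 2 months of age, had been given a 6% NaCl diet and aldosterone, infused at 0.2 µg per kg body weight each minute from a minipump, over 3 weeks. Nephrin-Cre is driven from the promoter of a podocyte gene, so deletion is directed to podocytes and not to the tubule cells in which these aquaporins are known. The number of mice behind each array is not given in the labels.

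In the nephron, water follows solute through aquaporins that differ by segment. Aqp1 is the constitutively open water channel of the proximal tubule and thin descending limb, where most filtrate is reabsorbed. Aqp2 is the vasopressin-regulated channel on the luminal side of collecting duct principal cells, and Aqp3 and Aqp4 let the water out on the blood side of those cells. Aqp6 lies in vesicles of intercalated cells, the acid-base cells of the collecting duct. Aqp7 is an aquaglyceroporin of the straight proximal tubule that takes up glycerol. Aqp8 and Aqp11 are mostly intracellular, and loss of Aqp11 gives polycystic kidneys in mice. Aqp1 is also made by blood vessel endothelium and erythrocytes.

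RefSeq promoters (GRCm38.p6) were matched for 7 of the 8 genes, from 250 bases before to 50 bases after the start of the gene. Those of Aqp2 and Aqp3, which act on opposite faces of 1 cell type, and of Aqp1, from another segment, are shown because the 3 genes differed by nearly the same amount between the arrays. They are printed 5′ to 3′ on the strand of the gene, and capitals mark the motif matches named after them.
Aqp2 promoter, chr15:99578806-99579105, plus strand: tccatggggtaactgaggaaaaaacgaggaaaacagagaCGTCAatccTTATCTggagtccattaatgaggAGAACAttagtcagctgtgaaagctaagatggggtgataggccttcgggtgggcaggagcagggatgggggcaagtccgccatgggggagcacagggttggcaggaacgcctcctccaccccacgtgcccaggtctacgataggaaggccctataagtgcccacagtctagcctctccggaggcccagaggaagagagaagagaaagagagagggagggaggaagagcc
Aqp3 promoter, chr4:41098134-41098433, minus strand: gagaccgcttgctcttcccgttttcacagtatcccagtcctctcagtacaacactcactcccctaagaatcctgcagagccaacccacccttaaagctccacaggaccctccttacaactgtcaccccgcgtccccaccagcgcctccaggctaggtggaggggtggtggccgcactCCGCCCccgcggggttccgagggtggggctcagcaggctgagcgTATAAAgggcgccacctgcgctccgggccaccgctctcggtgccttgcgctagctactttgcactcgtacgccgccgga
Aqp1 promoter, chr6:55336049-55336348, plus strand: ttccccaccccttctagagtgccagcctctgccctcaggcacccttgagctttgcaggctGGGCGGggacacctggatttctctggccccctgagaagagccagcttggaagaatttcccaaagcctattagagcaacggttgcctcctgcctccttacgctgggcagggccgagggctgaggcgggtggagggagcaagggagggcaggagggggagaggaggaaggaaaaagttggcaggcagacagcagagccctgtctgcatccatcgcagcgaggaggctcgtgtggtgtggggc

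Each motif was searched on both strands and compared with 32851 promoter windows of the same length. CGTCA, the half-site of the cAMP response element, was in the promoter of 1 of the 7 genes, Aqp2, and in 20.8% of all windows. The full element TGACGTCA, which contains the half-site on both strands, was in 0 of the 7 and in 1.79% of all windows. AGATAA, a core bound by GATA factors, and AGAACA, a half-site bound by glucocorticoid and mineralocorticoid receptors, were each found for Aqp2 and Aqp7, against 11.2% and 19.0% of all windows. Aqp7 has more than a single promoter window, and a match in any was counted. The Aqp3 window held TATAAA (13.6% of all windows), and the GC box GGGCGG was found for Aqp1 and Aqp3 (35.7%). GTTAAT, a half-site of HNF1 factors, was found for none of the 7 and in 7.1% of all windows. No 2 of the printed windows therefore shared a match other than the GC box. A match describes letters only.

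All 8 aquaporin genes gave lower signals in double-knockout glomeruli than in control glomeruli. Of these, 7 differed by 1.66-fold to 2.13-fold, across the proximal tubule, principal cell and intercalated cell genes alike, and Aqp8 differed by 1.29-fold at a signal close to the floor. Signals under 52.7, the mean over both arrays of their 40th percentiles and called the floor, were raised to it, and a gene counted as measured where at least 1 array reached it. Each gene is given by the brightest of its probe sets, leaving out sets open to cross-hybridisation where another exists, and differences are log2 of the signal in double-knockout glomeruli minus log2 of that in control glomeruli. With 1 array per genotype no difference has a replicate check, so no test was made, and higher and lower describe these arrays. Signals of separate genes come from different probes and are not set against each other.

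**Figure D1:**
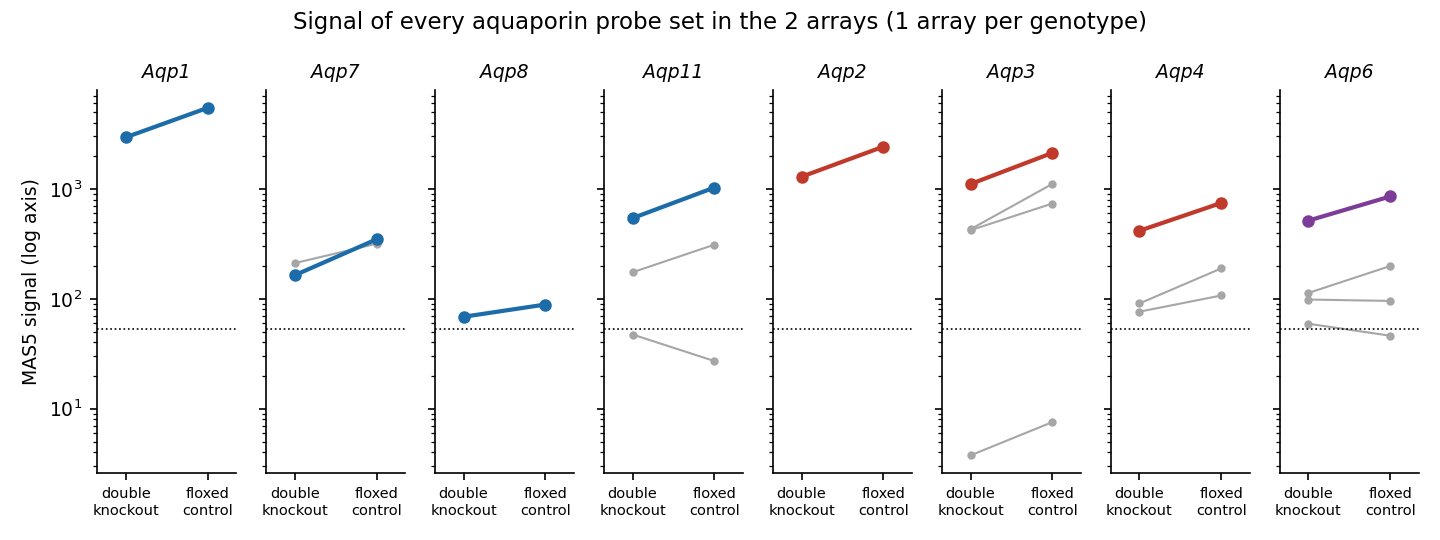
MAS5 signal (vertical log axis) of each of the 19 aquaporin probe sets in double-knockout glomeruli (left in each panel) and the floxed control (right), 1 array each. Coloured lines are the probe set that represents the gene (blue for proximal tubule, red for principal cell, purple for intercalated cell), grey lines the others, and the dotted line the floor of 52.7; all 8 coloured lines are lower on the left.

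Among the genes of the proximal tubule, Aqp1 had a signal of 2946 in double-knockout glomeruli and 5464 in control glomeruli. This is a log2 difference of -0.89, or 1.85-fold lower, and lay at percentile 4.15 of the differences of all 13290 measured genes. Aqp7, the glycerol channel, read 164 in double-knockout glomeruli and 348 in control glomeruli. It was 2.13-fold lower (log2 difference -1.09, percentile 2.20) and was the only aquaporin past 2-fold by its representing probe set. A second Aqp7 probe set, of a kind open to cross-hybridisation, gave 211 in double-knockout glomeruli and 317 in control glomeruli, a smaller difference of -0.59. That set was the brighter of the 2 in mean log2 signal, and with it in place of the first no aquaporin was past 2-fold.

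Aqp11, the endoplasmic reticulum channel whose loss causes kidney cysts in mice, had 542 in double-knockout glomeruli and 1029 in control glomeruli. It was 1.90-fold lower (log2 difference -0.93, percentile 3.77), and its cross-hybridising probe set gave -0.84. The remaining Aqp11 probe set was below the floor on both arrays, at 47.3 in double-knockout glomeruli and 27.1 in control glomeruli. Aqp8, known in other tissues for passing water, ammonia and hydrogen peroxide, had 68.6 in double-knockout glomeruli and 88.7 in control glomeruli. Its log2 difference of -0.37 lay at percentile 18.2 of all measured genes, nearer to their middle than the other 7 aquaporins.

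The principal cell channels differed by similar amounts on the log2 scale. Aqp2, the channel that vasopressin moves to the luminal membrane, read 1290.0 in double-knockout glomeruli and 2426 in control glomeruli, 1.88-fold lower (log2 difference -0.91, percentile 3.95). Aqp3, the basolateral channel that also passes glycerol, read 1107 in double-knockout glomeruli and 2128 in control glomeruli, 1.92-fold lower (-0.94, percentile 3.55). Aqp4, the other basolateral water channel, read 416 in double-knockout glomeruli and 745 in control glomeruli, 1.79-fold lower (-0.84, percentile 4.75). By their representing probe sets the 3 genes thus ran from -0.94 to -0.84 in log2 difference.

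The further probe sets of Aqp3 and Aqp4 were lower in double-knockout glomeruli too, with a wider spread. For Aqp3 they read 429 in double-knockout glomeruli against 1111 in control glomeruli (log2 difference -1.37) and 421 against 736 (-0.81). A last Aqp3 probe set was far below the floor on both arrays, at 3.75 in double-knockout glomeruli and 7.54 in control glomeruli. For Aqp4 they read 90.7 in double-knockout glomeruli against 189 in control glomeruli (-1.06) and 76.3 against 107 (-0.49).

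Aqp6, the vesicular channel of intercalated cells, was the gene on which probe sets disagreed. Its representing probe set read 515 in double-knockout glomeruli and 854 in control glomeruli, 1.66-fold lower (log2 difference -0.73, percentile 6.47), and another gave 113 against 199 (-0.81). A further Aqp6 probe set read 98.3 in double-knockout glomeruli and 95.6 in control glomeruli (0.04), and the last read 59.2 in double-knockout glomeruli and 46.1, below the floor, in control glomeruli. The lower reading of Aqp6 therefore rests on 2 of its 4 probe sets.

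**Figure D2:**
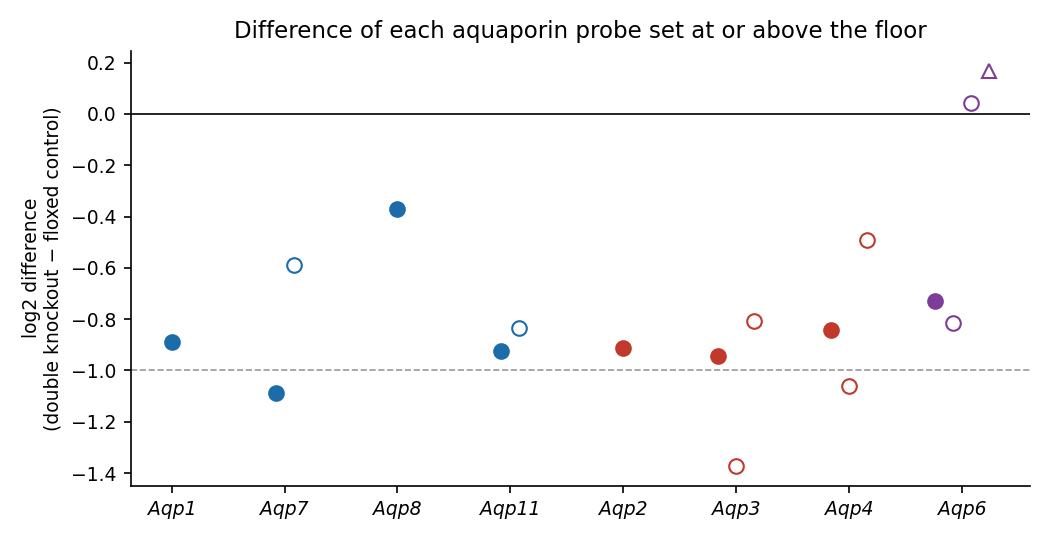
Log2 difference, double knockout minus floxed control (vertical axis), of the 17 aquaporin probe sets at or above the floor on at least 1 array. Filled symbols represent the gene and open ones are its other probe sets; the triangle is the Aqp6 probe set below the floor in control glomeruli, and the dashed line marks 2-fold lower. Besides that triangle, 1 probe set of 16, of Aqp6, is above 0.

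Of the 19 probe sets, 16 were above the floor on both arrays, and 15 of these 16 were lower in double-knockout glomeruli. Their median log2 difference was -0.84, and 3 of the 16 were at least 2-fold lower, from Aqp3, Aqp4 and Aqp7. By gene, all 8 were below 0, where 43.9% of all measured genes were. Past 1.5-fold lower were 7 of 8 genes, beside 10.0% of all measured genes, and past 2-fold lower was 1 of 8, beside 2.87%. Aqp6 fell short of 1.5-fold with the mean over all its probe sets (-0.33) and with the mean over those above the floor on both arrays (-0.50), while Aqp11 was just past it with the first of these means (-0.59). No aquaporin was past 1.5-fold higher, beside 13.7% of all measured genes, or past 2-fold higher, beside 3.53%. The median over the 8 genes was -0.90, or 1.87-fold lower, and that over all measured genes was 0.07. The 7 genes other than Aqp8 spanned 0.36 on the log2 scale, from -1.09 to -0.73, an interval that held 4.27% of all measured genes. The middle 50% of all measured genes ran from -0.24 to 0.37. How many aquaporins passed 2-fold depended on the scaling and on the choice of probe set. It was 4 after centring the arrays on their median, beside 3.98% of all measured genes, and 0 with the mean over all probe sets of a gene, beside 2.14%.

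**Figure D3:**
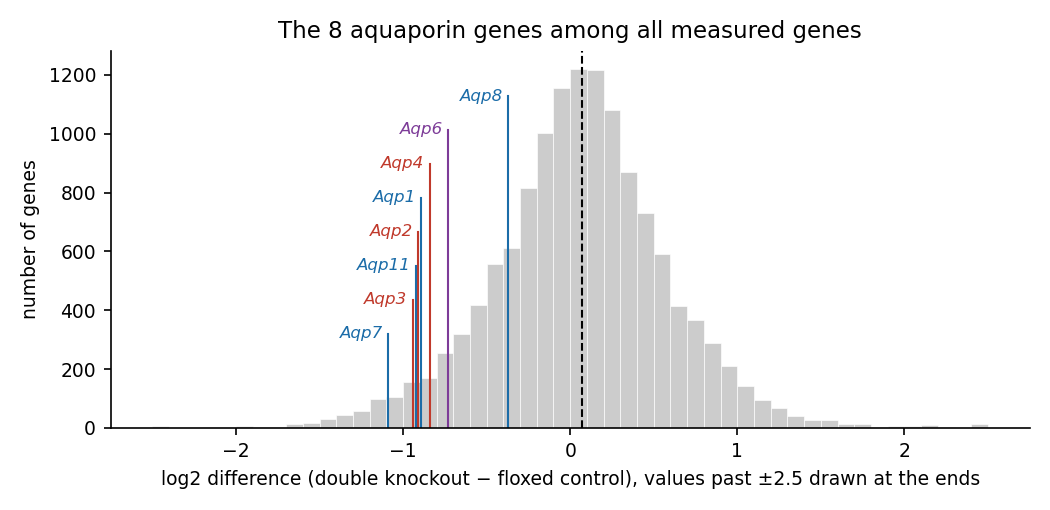
Histogram of the log2 difference, double knockout minus floxed control (horizontal axis), over the 13290 measured genes, with the number of genes on the vertical axis. Coloured lines mark the 8 aquaporin genes (blue for proximal tubule, red for principal cell, purple for intercalated cell; line height has no meaning) and the dashed line the median of all genes, 0.07; 7 aquaporins lie in the lower tail between -1.09 and -0.73, and Aqp8 lies at -0.37.

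The remaining mouse aquaporin genes that were looked up, Mip, Aqp5, Aqp9 and Aqp12, were below the floor on both arrays by every probe set. Aqp5, the channel of salivary and lung epithelium, lies between Aqp2 and Aqp6 on chromosome 15 with no other gene among the 3 in the RefSeq table. It read 18.5 in double-knockout glomeruli and 34.7 in control glomeruli. Aqp3 and Aqp7 are likewise near neighbours, on chromosome 4, with 1 gene and no protein-coding gene between them. Aqp9, an aquaglyceroporin of liver and leukocytes, read 14.5 in double-knockout glomeruli and 27.2 in control glomeruli by its brighter probe set. No difference is given for genes below the floor on both arrays.

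Markers of the segments that make these channels were also lower in double-knockout glomeruli. The marker lists were chosen with earlier results of these data known. Of all measured genes, 43.9% were below 0 and 2.87% were at least 2-fold lower. All 19 measured proximal tubule markers were below 0, with a median log2 difference of -0.85 and 5 at least 2-fold lower. These were Dpys (-1.66), Slc7a13 (-1.43), Slc6a19 (-1.28), Slc22a8 (-1.15) and Slc3a1 (-1.07), of which the Slc genes encode carriers of amino acids or organic anions. Their summed signal was 152997 in double-knockout glomeruli and 255391 in control glomeruli, a ratio of 0.60, with no defining marker at 0. All 6 measured principal cell markers were below 0, with a median of -0.63 and none past 2-fold. Their summed signal was 5240 in double-knockout glomeruli and 8182 in control glomeruli, a ratio of 0.64 with Elf5 included. Intercalated cell markers had a median of -0.97, with all 11 below 0, a summed signal of 3739 in double-knockout glomeruli and 7669 in control glomeruli, and 5 at least 2-fold lower. Those 5 were the anion exchanger genes Slc4a1 (-1.58) and Slc4a9 (-1.10), the ammonia channel gene Rhbg (-1.52), the transcription factor gene Foxi1 (-1.30) and the receptor gene Oxgr1 (-1.09). Fewer tubule cells among the glomeruli and less RNA per tubule cell cannot be told apart in such samples, and the part of either in the aquaporin differences was not tested. Signals are also relative to the rest of their array, so these are not the only readings.

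**Figure D4:**
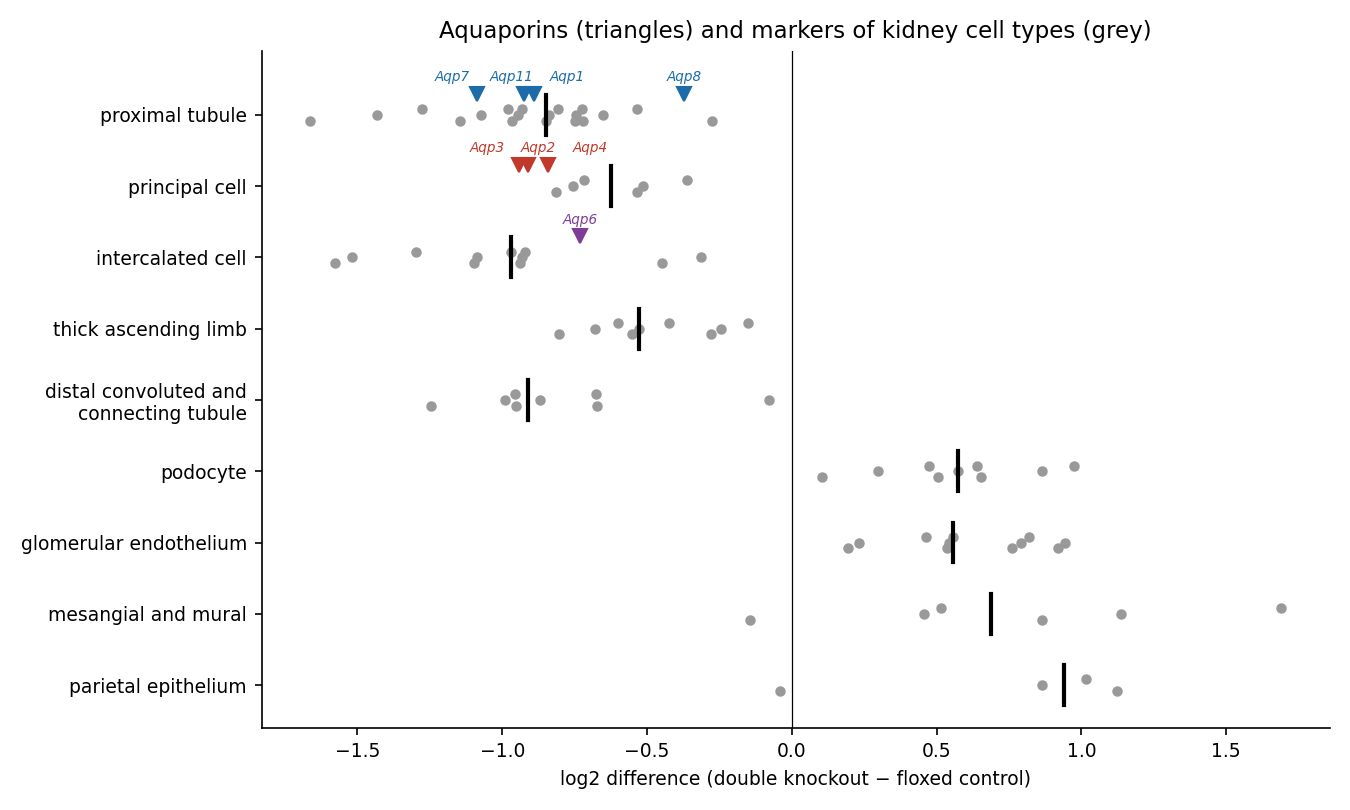
Log2 difference, double knockout minus floxed control (horizontal axis), of the measured markers of 9 kidney cell types (grey points, 1 per gene, with the median as a black bar) and of the aquaporins of 3 of these types (triangles, named). The aquaporins lie with the markers of their segments below 0, Aqp2, Aqp3 and Aqp4 to the left of all 6 measured principal cell markers, while markers of glomerular cells lie mostly above 0. The intercalated cell marker Insrr (-0.31) was below the floor in double-knockout glomeruli, so its point is a bound.

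Set beside the markers of their own segment, the aquaporins differed in position. Aqp1 and Aqp11 were close to the proximal tubule median, at -0.04 and -0.08 relative to it, and 9 of 19 markers were lower than each of them. Aqp7 was at -0.24 relative to that median, with 4 of 19 markers lower. These signs turned with the probe sets used: Aqp1 was above the median by 0.05 and Aqp11 by 0.36 with the mean over probe sets, and Aqp7 by 0.25 with its cross-hybridising set. Aqp8 was above it by 0.48, with 18 of 19 markers lower. Aqp2, Aqp3 and Aqp4 were at -0.29, -0.32 and -0.22 relative to the principal cell median, and none of the 6 measured markers was lower than any of the 3. The lowest of these markers were Tmem45b (-0.81), the sodium channel subunit gene Scnn1g (-0.75), Fxyd4 (-0.72), which encodes a regulator of the sodium pump, and Hsd11b2 (-0.53), an enzyme that inactivates glucocorticoids and so keeps them off the mineralocorticoid receptor. The transcription factor gene Elf5, also on this list, was below the floor on both arrays (13.6 in double-knockout glomeruli, 51.2 in control glomeruli). With the floor at the 25th percentile it was counted, and at -1.09 it was then lower than the 3 channels. Its signal in double-knockout glomeruli was still below that floor, so -1.09 is a bound. With the mean over all probe sets of a gene, 1 marker was lower than Aqp3 and Aqp4 and 0 were lower than Aqp2. Aqp6 was above the intercalated cell median by 0.24, with 9 of 11 markers lower.

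Other segments of the tubule gave the same direction. Over all measured genes, 43.9% were below 0, 2.87% were at least 2-fold lower and 3.53% at least 2-fold higher. Thick ascending limb markers had a median of -0.53, with all 9 below 0, led by Cldn10 (-0.80), and distal convoluted and connecting tubule markers had -0.91, with all 8 below 0, led by the calcium-binding protein gene Calb1 (-1.25). Glomerular cell markers were above the floor on both arrays and mostly higher in double-knockout glomeruli. Nphs1, which encodes the slit diaphragm protein nephrin, read 8373 in double-knockout glomeruli and 5320.5 in control glomeruli. Podocyte markers had a median of 0.57 (9 of 9 above 0), glomerular endothelial markers 0.56 (11 of 11), mesangial and mural markers 0.69 (5 of 6) and parietal epithelial markers 0.94 (3 of 4). At least 2-fold higher were 2 of 6 mesangial and mural markers, Tagln (1.69) and Des (1.14). So were 2 of 4 parietal epithelial markers, Cldn1 (1.12) and Ncam1 (1.02). Myh11 (-0.14) of the first list and Pax8 (-0.04) of the second were below 0. The summed signal of the glomerular endothelial markers was 72812 in double-knockout glomeruli and 51501 in control glomeruli. This list does not single out the vessels that may carry Aqp1, and a part of endothelium in the Aqp1 difference was not tested. Of the erythrocyte markers only Alas2 was above the floor, at 118 in double-knockout glomeruli and 107 in control glomeruli, and Hba-a1 was below it, at 14.3 in double-knockout glomeruli and 18.6 in control glomeruli. Of the adipocyte markers, from another cell type that makes Aqp7, only Plin4 reached the floor, and only in double-knockout glomeruli, at 66.2, against 51.7 in control glomeruli. Urothelial markers, from a lining that also makes Aqp3, had a median of 0.08 (5 measured, 1 at least 2-fold lower, Upk1b, with 47.9 in double-knockout glomeruli, below the floor, and 113 in control glomeruli). Macrophage markers had a median of 0.87, with all 5 above 0 and C1qa (1.17) past 2-fold.

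Recentring all differences on the 53 tubule segment markers (median -0.81), chosen after the values were seen, left the aquaporin median at -0.093, with 6 of 8 genes below 0, beside 5.2% of all measured genes. Aqp7 then read -0.28 and Aqp3 -0.14, while Aqp6 read 0.08 and Aqp8 0.44. Recentring on the 30 glomerular cell markers (median 0.61) put the aquaporin median at -1.51, with 7 of 8 genes at least 2-fold lower, beside 17.2% of all measured genes. Each recentring takes 1 constant from every gene, so the order of the genes stays as it was.

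The signalling and transport genes around the channels did not share one direction. Vasopressin signals through cAMP to insert Aqp2 into the membrane, and the list of vasopressin and cAMP signalling is wider than that step. Its median log2 difference was 0.05, with 9 of 18 genes below 0, beside 43.9% of all measured genes. Past 2-fold lower was 1 of 18, beside 2.87%, and this was Oxgr1, a receptor gene also on the intercalated cell list. After Oxgr1 the largest differences were those of the vasopressin V1a receptor gene Avpr1a (-0.93), the protein kinase A subunit gene Prkar2b (0.62) and the transcription factor gene Creb1 (0.62). The V2 receptor gene Avpr2, through which vasopressin acts on principal cells and which was picked after its value was seen, read 369 in double-knockout glomeruli and 526 in control glomeruli (-0.51). Genes of Aqp2 trafficking, the vesicle and membrane fusion machinery, had a median of -0.12, with 12 of 18 below 0 and none past 2-fold. The largest were Vamp3 (0.52), the myosin gene Myo5b (-0.51), the syntaxin gene Stx3 (-0.50) and Vamp8 (-0.39). Many genes of both lists are not specific to collecting duct cells.

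Genes that build and sense the salt and urea gradient of the medulla, which draws water through the aquaporins, had a median of -0.15. Of these, 6 of 9 were below 0 and none was past 2-fold. Over all measured genes, 43.9% were below 0 and 2.87% were at least 2-fold lower. The urea transporter gene Slc14a2 (-0.58), the potassium channel gene Kcnj1 (-0.55) and the sodium-potassium-chloride carrier gene Slc12a1 (-0.53) were lower, and Nfat5, which encodes the tonicity-responsive transcription factor, was higher (0.47). Glycerol handling genes, a list that includes lipases and not only steps after uptake by the aquaglyceroporins, had a median of 0.01, with 3 of 6 below 0. The glycerol kinase gene Gk was listed but not found under that symbol on the array. Gpd1, the cytosolic glycerol-3-phosphate dehydrogenase, was at -0.98 (1449.85 in double-knockout glomeruli, 2854 in control glomeruli), and the lipase genes Mgll, Pnpla2 and Lipe were at 0.52, -0.28 and 0.11. Transcription factors of the nephron segments had a median of 0.09, with 4 of 8 below 0. Foxi1 of intercalated cells (-1.30), Tfcp2l1 of the collecting duct (-0.66) and Hnf4a of the proximal tubule (-0.63) were lower. Gata3, a factor of collecting duct cells that mesangial cells make as well, was higher (0.72).

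With 2 arrays the likeness of genes can be measured only as the gap between their log2 differences. Among 146 measured genes of the marker and pathway lists, those nearest to Aqp1 were S100g, Hepacam2 and Slc22a12, with gaps of at most 0.041. Those nearest to Aqp2 were Hepacam2, Rhcg and Cubn, with gaps of at most 0.022. They come from proximal, distal and intercalated cell lists. The candidates were these lists alone, chosen with earlier results of these data known, and all 53 measured tubule segment markers were below 0. The lists of the nearest genes thus follow in part from the choice of candidates. Across the array, 568 measured genes (4.27%) lay in the interval of the 7 aquaporins other than Aqp8.

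The targeted genes and the arrays set the frame for these values. Npr1, which encodes GC-A, read 102 in double-knockout glomeruli and 167 in control glomeruli (log2 difference -0.71). Mapk14, the p38α gene, is taken as the floxed p38 since the labels name no isoform, and its main probe set gave 2607 in double-knockout glomeruli and 2628 in control glomeruli (-0.01). Where these probe sets lie relative to the floxed exons is not given in the sources used here, so they do not check the deletion. The median signal over the array was 94.7 in double-knockout glomeruli and 88.6 in control glomeruli, and the 3′ over 5′ ratio for the Actb controls was 1.29 in double-knockout glomeruli and 1.36 in control glomeruli.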

How the data were processed

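Glomerular RNA of 2 genotypes was hybridised to 1-colour arrays, 1 per genotype, after 3′ in vitro transcription with biotin, per the labels' protocols. The authors deposited 1 linear intensity per probe set. The submitters' processing notes name MAS5, whose version is not given in the sources used here. From the values, each array had a mean of 500.0 once the lowest and highest 2% were left out, so signals are relative to the rest of that array. Precision is limited by the number of arrays, and no standard error or p-value can be had.

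Values were used as deposited (Python 3.11.15, pandas 2.3.3, numpy 2.4.6). The 64 control probe sets of 45101 were left out, and genes were named from GEO's platform annotation. A gene was represented by its brightest probe set with 1 symbol, without cross-hybridising sets where another existed. Signals below the floor of 52.7 were raised to it before log2, and a gene counted as measured if either signal reached the floor. The members and lists were chosen with earlier results of these data known. Named genes were all probe sets of the 8 genes, the other aquaporins, the deleted genes, list members past 2-fold, up to 4 per list with the largest differences, and the 3 nearest to Aqp1 and Aqp2. Of 187 listed genes, 167 were named on the array and 154 measured, and the others were not analysed here. Chromosomes and gene order came from the RefSeq table of GRCm38.p6. Alternatives were other floors, scalings, probe set choices and size rules. The steps were run on simulated signals in which 200 genes well above the floor were changed by more than any aquaporin differed. That run does not check differences as small as those of the aquaporins, or genes near the floor.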

Additional observations from a re-analysis of the deposited data

How the results depend on the processing

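The aquaporins kept their direction under the floors, scalings and probe set choices tried: of the 8 genes all stayed below 0 in each, except that Aqp8 was not measured under a floor at the 60th percentile (7 of 7 below 0) and that 6 of 8 were below 0 after recentring on tubule markers, beside 5.2% of all measured genes. Apart from the recentrings, the median ran from -0.997 with 75th percentile centring to -0.79 with the mean over probe sets, and the recentrings on tubule and glomerular markers gave -0.093 and -1.51. The count past 2-fold lower, 1 as reported beside 2.87% of all measured genes, was less steady, and the share of all measured genes under each setting follows it here in brackets. It was 0 under a floor at the 60th percentile (2.93%), with a pseudocount of 32 (2.6%), with the mean over probe sets (2.14%), with cross-hybridising sets kept (2.87%), under a 3-fold rule (0.256%) and after recentring on tubule markers (0.128%). It was 2 after quantile normalization (3.28%), after removal of the loess trend (3.26%) and with the mean over probe sets above the floor on both arrays (2.6%). It was 4 after median or 75th percentile centring (3.98% each), 7 under a 1.5-fold rule (10.0%) and 7 after recentring on glomerular markers (17.2%). Both recentrings, the mean over probe sets above the floor and the keeping of cross-hybridising sets were chosen after seeing the data. Count changes under another size rule follow from the rule, and for the other settings the cause was not tested. Over the scalings the number of all genes at least 2-fold lower and higher was 382 and 469 as reported, 530 and 333 with median or 75th percentile centring, 436 and 356 after quantile normalization and 433 and 356 after loess. Positions relative to segment markers were compared over 10 alternative floors, scalings and probe set choices, without the recentrings and the centrings on the median or 75th percentile. Those 2 centrings scale each array by a constant, but 7 principal cell markers were then measured, not 6. With either, Aqp2, Aqp3 and Aqp4 lay at -0.38, -0.41 and -0.31 relative to the principal cell median and were lower than all 7. Relative to their segment medians, Aqp2, Aqp3 and Aqp4 were lower and Aqp6 higher in all 10, and Aqp8 was higher in the 9 in which it was measured. Aqp1 was lower in 7 of 10, Aqp11 in 7 of 10 and Aqp7 in 8 of 10. Aqp2 was below every measured principal cell marker in 9 of 10, Aqp3 in 8 and Aqp4 in 7. Aqp8, Aqp7 and the weaker probe sets of Aqp4 and Aqp6 are close enough to the floor that background limits them. No paired analysis was possible because each genotype had 1 array.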
